A study of Mus musculus with 6 samples.

Results

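The transcripts described here are those of 10 circadian clock factors, Clock, Bmal1, Per1, Per2, Cry1, Bhlhe40, Bhlhe41, Nr1d1, Dbp and Nfil3, found by gene name among the 56884 genes of the deposited table. They form a set of genes of the clock pathway, selected on the transcript levels of this same contrast. Earlier results of these data were known when the set was proposed. Each of the 10 was found once. RNA sequencing covered 6 libraries of mouse neutrophils, sorted from bone marrow by the surface proteins CD101 and Ly6G and kept in culture, 3 without DKK1 (control) and 3 with it. DKK1 is a secreted antagonist of Wnt signalling. The labels name no genotype, strain or age of the mice, no concentration of DKK1, no culture time and no hour of cell collection. They also do not say whether libraries stem from different mice or culture wells, so p-values here measure no more than the spread of these 6 libraries, and that spread may be technical.

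The mammalian clock is a loop of transcription factors. CLOCK pairs with BMAL1, binds the E-box sequence and drives the Per, Cry, Nr1d, Dbp and Bhlhe genes. PER and CRY proteins then block the CLOCK-BMAL1 pair, BHLHE40 and BHLHE41 (also called DEC1 and DEC2) compete with it for the E-box, and NR1D1 (REV-ERB alpha) represses Bmal1. DBP and NFIL3 bind a further element, the D-box, as activator and repressor. In neutrophils, Bmal1 is known for its part in the daily ageing of circulating cells, in which Cxcl2 and Cxcr2 take part. In other leukocytes BHLHE40 is known as a repressor of Il10, and BHLHE40 and BHLHE41 are expressed in several macrophage types.

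The E-box ties most of these genes together, so stretches of 30 bases around it are shown for the members that carry it close to their start, with the box in capitals. They come from RefSeq on the GRCm38.p6 assembly, the same build as the mm10 of the submitters' processing notes, and read 5′ to 3′ on the strand of the gene. Of 5 motifs searched on both strands, 2 are shown: the E-box, spelled CACGTG on either strand, and its E-prime variant, spelled CACGTT or, read from the other strand, AACGTG, in the 250 bases before each start. The 3 stretches of Ciart, a repressor of CLOCK-BMAL1 described below, are shown for comparison. The stretches of Cry1 overlap each other, as do the last 2 of Ciart.
Bhlhe41 E-box, chr6:145865556-145865585, minus strand: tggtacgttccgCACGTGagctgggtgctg
Cry1 E-box, chr10:85185097-85185126, minus strand: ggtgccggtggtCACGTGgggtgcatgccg
Cry1 E-prime box, chr10:85185116-85185145, minus strand: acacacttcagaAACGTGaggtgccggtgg
Nr1d1 E-prime box, chr11:98775388-98775417, minus strand: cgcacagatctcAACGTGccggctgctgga
Per1 E-box, chr11:69098771-69098800, plus strand: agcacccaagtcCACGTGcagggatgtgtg
Ciart E-box, chr3:95882327-95882356, minus strand: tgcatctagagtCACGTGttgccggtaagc
Ciart E-box, chr3:95882269-95882298, minus strand: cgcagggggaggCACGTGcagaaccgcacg
Ciart E-box, chr3:95882255-95882284, minus strand: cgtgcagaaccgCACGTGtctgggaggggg

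RefSeq starts were matched for 8 of the 10 members, all but Bhlhe40 and Per2, with 12 start windows. The E-box stood in 3 of the 12 windows, 1 each of Bhlhe41, Cry1 and Per1, against 6.02% of 32851 windows of all genes. The E-prime box stood in 2, those of Cry1 and Nr1d1, against 3.85%. The half-site AGGTCA, read by the ROR and REV-ERB receptors, stood in 3, 1 each of Per1, Clock and Nfil3, against 14% of all windows. The D-box, searched as TTATGTAA, and the cyclic AMP response element, searched as TGACGTCA, stood in 0 of the 12, against 0.819% and 1.55%. None of these motifs overlaps another in the windows of the members. In the GENCODE M21 annotation the boxes of Bhlhe41, Cry1, Nr1d1 and Ciart lie upstream of the gene, and that of Per1 lies in an intron, before an inner start. A match is a run of letters and not a measured binding site, and its absence from this window says nothing about the factor. Bhlhe41 and Cry1, with an E-box, were higher with DKK1 and Per1, with the same box, was lower. Of the 22 further clock genes described below, 19 had matched starts, with 25 windows. The E-box stood in 5 of these, 2 of Tef and 1 each of Ciart, Cipc and Sirt1, all higher with DKK1. Nr1d2 and Per3, also higher, had no E-box in their windows, nor had Bmal2, Csnk1e and Gsk3b, which were lower. A link between box and change was not tested.

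The values are normalized counts from libraries of 5188116 to 9851961 recovered reads. DKK1 library 2 was the shallowest, and the normalized counts summed to 9729307 ± 39771 in control and 6738824 ± 336773 with DKK1 (SD, n = 3 each). The sorting markers went against the label of the DKK1 libraries. Cd101 stood at 5098 ± 178 in control and 3.53 ± 2.31 with DKK1, and Ly6g at 1337.5 ± 72.7 and 5.96 ± 1.30. All 8 listed markers of mature neutrophils were lower, their sum running from 657946 to 683026 in control and from 2633 to 3016 with DKK1. The 12 monocyte and macrophage markers summed to between 7393 and 7531 in control and between 15296 and 15430 with DKK1, 4 of them higher, 7 lower and 1 not past the threshold, with C1qa at 0 reads in DKK1. Cd68 (902 ± 43.7 in control, 10121 ± 286 with DKK1) made up most of that DKK1 sum. Among the 7 lower were Csf1r (2754 ± 41.4 and 2073 ± 141) and Ly6c2 (2504 ± 68.4 and 30.1 ± 13.9). Sums of the B cell markers (1476 to 1595 against 41.2 to 112), T and NK cell markers (47.3 to 74.7 against 0 to 2.98) and erythroid markers (1577 to 1720.3 against 300.5 to 1496) were lower, with Trbc2 and Ncr1 at 0 reads in both groups. Called lower were 5 of 6 B cell, 2 of 7 T and NK cell and 3 of 5 erythroid markers. Of the rest, 1 B cell and 2 erythroid markers did not pass, and 5 T and NK cell markers were not tested. The erythroid sum of 1496 was that of DKK1 library 2. In control, Ighm (1458 ± 70.8) made up most of the B cell sum and Cd3d (58.1 ± 14.5) most of the T and NK cell sum. The marker differences run alongside every change below, and their part in the clock gene values was not tested.

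Of the 10 clock factors, 6 rose and 4 fell with DKK1. The threshold was an adjusted p under 0.05 by limma with Benjamini-Hochberg adjustment over the 16265 genes tested, of which it called 71.2%, 35.1% higher and 36.1% lower. Since the members were proposed with this contrast known, their count is a description and nothing is read from it. Bhlhe40, Bhlhe41, Cry1, Clock, Nr1d1 and Dbp were higher, and Per1, Per2, Bmal1 and Nfil3 were lower. In 9 of the 10 the groups did not overlap (73.9% of all genes tested), and Bmal1 was the exception. In bulk RNA, fewer cells of a type and less RNA per cell cannot be told apart.

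**Figure D1:**
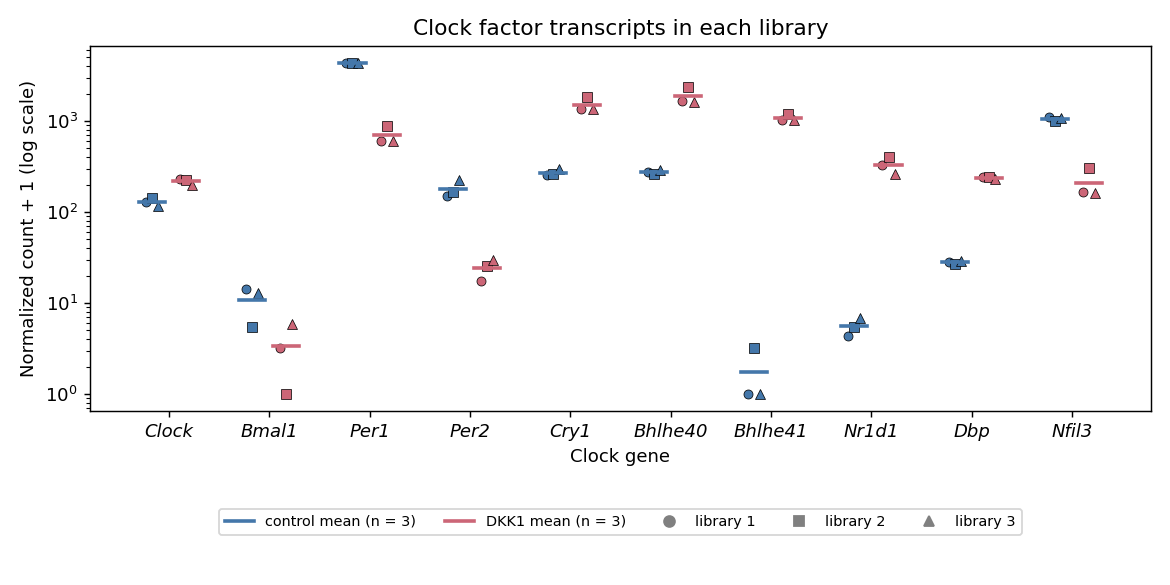
Normalized count + 1 (log scale) of each clock factor in the 3 control libraries (blue) and the 3 DKK1 libraries (red). Symbols mark library numbers and bars the group means. The groups overlap for Bmal1 alone, and Bhlhe41 goes from 0.745 to 1073 on average.

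Of the activating pair of the loop, Clock rose, and Bmal1 was lower on few reads and with a call that did not hold in most alternative analyses. Clock (chromosome 5, 76209868 to 76304792, minus strand, GENCODE M21 on GRCm38 here and below) encodes the DNA-binding partner of BMAL1. Clock stood at normalized counts of 128, 142 and 115 in control libraries 1 to 3 and at 227, 224 and 197 in DKK1 libraries 1 to 3. All 3 DKK1 libraries lay above all 3 controls, 1.68-fold on the means (log2 change 0.74, SE 0.13).

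Bmal1 (chromosome 7, 113207465 to 113314126, plus strand; Arntl in older annotation) was close to the limit of detection. It stood at 13.2, 4.47 and 11.8 in control and at 2.24, 0 and 4.90 with DKK1, which is 28 reads over the control libraries and 9 over the DKK1 libraries. The highest DKK1 library lay above the lowest control, so the groups overlapped. The log2 change was -1.90 (SE 0.72, limma adjusted p = 0.0392), and the adjusted p ran from 0.0130 to 0.117 over 15 alternative analyses, of which 8 did not pass. Without DKK1 library 2, which had 0 reads, the log2 change was -1.19 and no longer passed. The call was also lost without control library 1 (-1.65), control library 3 (-1.72) or DKK1 library 1 (-2.04). The paralogues that can stand in for these factors were scarcer still. Npas2 had 1 read in control and 0 with DKK1, and Bmal2 had 12 reads and 2, a ratio of 0.143 with a 95% exact counting interval of 0.0155 to 0.641 (limma adjusted p = 0.0171). Leaving out DKK1 library 2, DKK1 library 3, control library 1 or control library 2 ended the Bmal2 call (limma adjusted p = 0.0508, 0.0610, 0.0810 and 0.0815), and DESeq2 did not call Bmal2 either (adjusted p = 0.0943).

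The genes of the PER and CRY repressors split. Per1 (chromosome 11, 69095217 to 69109960, plus strand), which also responds quickly to outside stimuli, stood at 4326, 4381 and 4383 in control and at 606, 887 and 604 with DKK1. Per1 had the smallest SD relative to its mean of the members in control (0.750%, n = 3, on 3939, 3922 and 4449 reads) and fell 6.24-fold. That SD is smaller than counting error at these read numbers, so it does not measure precision. Per2 (chromosome 1, 91415982 to 91459324, minus strand), its partner in the repressor complex, stood at 150.4, 163 and 221 in control and at 16.4, 24.7 and 28.6 with DKK1. Per2 fell 7.66-fold, with control library 3 the highest of the 6 libraries. Cry1 (chromosome 10, 85131700 to 85185064, minus strand) encodes the cryptochrome that holds CLOCK-BMAL1 in check late in the cycle. Cry1 stood at 255, 258 and 293 in control and at 1342, 1838 and 1345 with DKK1, 5.62-fold higher.

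The other genes of this arm were all higher. Per3, a period gene not needed for the core rhythm, rose from 8.79, 5.59 and 15.8 to 91.7, 139 and 129.8 (limma adjusted p = 1.96e-05). Cry2, the second cryptochrome, rose from 39.9 ± 14.1 to 126 ± 24.3 (SD, n = 3 each; limma adjusted p = 0.000341). Ciart (also called Chrono), whose protein represses CLOCK-BMAL1 and whose start carries the 3 E-boxes shown above, rose 156-fold from 5.38 ± 2.12 to 840 ± 262, on 15 control reads. Cipc, a CLOCK-interacting repressor, rose 48.3-fold from 78.9 ± 5.43 to 3815 ± 232. Within the period and cryptochrome families, therefore, Per1 and Per2 were lower while Per3, Cry1 and Cry2 were higher.

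Both DEC genes rose, from unlike starting levels. Bhlhe40 (chromosome 6, 108660629 to 108666925, plus strand) stood at 277, 259 and 289 in control and at 1673, 2332 and 1614 with DKK1, 6.81-fold higher. Bhlhe41 (same chromosome, 145858243 to 145865558, minus strand) stood at 0, 2.23 and 0 in control and at 1016, 1187 and 1016 with DKK1. That is 2 reads against 3471, a ratio of 1486 with a 95% exact counting interval of 411 to 12275. By size of log2 change (9.50, SE 0.44) Bhlhe41 was the 13th largest rise of the 16265 genes, and Bhlhe40 (2.75, SE 0.13) the 1708th. Part of Bhlhe41, 1280 of its 6720 exonic bases, overlaps the antisense gene Gm43909, which was at 0 in control and at 29.4 to 49.9 with DKK1. The strandedness of the libraries is not given, so reads in the overlap cannot be assigned to a strand. Antisense overlaps of Bhlhe40 (118 bases) and Bmal1 (33 bases) involve gene models with a mean of 0.916 or less in either group.

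Nr1d1 and its relatives rose as well. Nr1d1 (chromosome 11, 98767932 to 98775333, minus strand) stood at 3.29, 4.47 and 5.91 in control and at 327, 401 and 262 with DKK1, 72.4-fold higher on 13 control reads. Its exons share 263 bases with Thra on the opposite strand, which stood at 78.0 ± 13.7 and 84.5 ± 9.81. Nr1d2, encoding REV-ERB beta, rose 44.0-fold from 3.85 ± 1.43 to 169 ± 34.8, on 11 control reads. Rora, a nuclear receptor that activates through the element REV-ERB represses, had 3 reads in control and 79 with DKK1, a ratio of 22.5 with a 95% exact counting interval of 7.44 to 112. Rorb had 0 reads in either group. Both REV-ERB genes were thus near the limit of detection in control and well above it in every DKK1 library.

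The D-box factors moved in opposite directions. Dbp (chromosome 7, 45705088 to 45710203, plus strand), an activator and a classic readout of CLOCK-BMAL1 output, stood at 27.5, 25.7 and 27.6 in control and at 241, 243 and 229 with DKK1. Dbp rose 8.83-fold and had the smallest SD relative to its mean of the members with DKK1 (3.28%, n = 3, on 323, 177 and 280 reads). Here too the SD is smaller than counting error. It shares 539 of 2993 exonic bases with Sphk2 on the opposite strand, which stood at 317 ± 31.7 and 419.6 ± 32.3. Nfil3 (chromosome 13, 52967209 to 52981073, minus strand), the repressor at the same element and a factor induced by cytokines, stood at 1105, 1009 and 1071 in control and at 165, 302 and 160.03 with DKK1. Nfil3 fell 5.08-fold, and DKK1 library 2 was the highest of the 3. Tef, a second activator of the Dbp family, rose 46.9-fold from 14.99 ± 5.09 to 702 ± 31.7, whereas Hlf, the third, missed the threshold (6.69 ± 1.20 and 4.96 ± 3.01, limma adjusted p = 0.412).

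**Figure D2:**
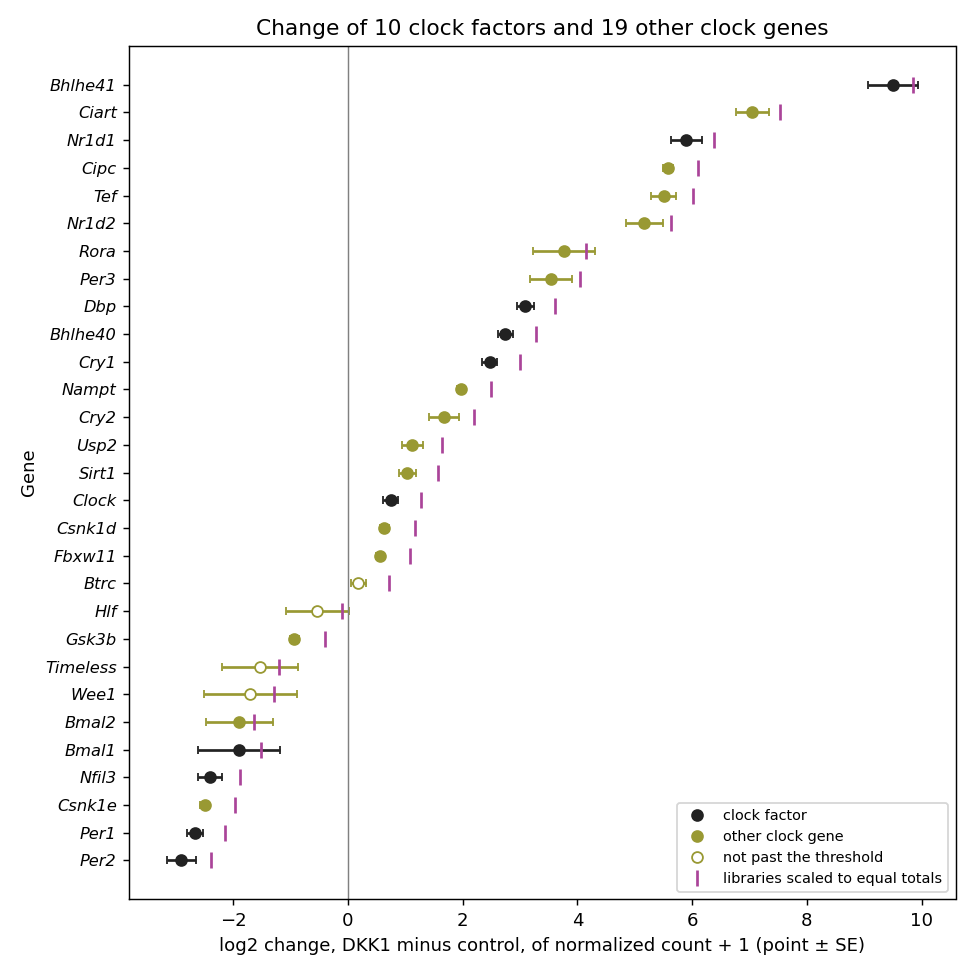
Log2 change (DKK1 minus control, of normalized count + 1; point and SE, n = 3 each) of the 10 clock factors (black) and 19 other clock genes (olive), ordered by size. Open points did not pass the threshold, and purple ticks give the change with libraries scaled to equal totals. Changes run from -2.90 for Per2 to 9.50 for Bhlhe41.

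Ratios within a library do not depend on how libraries were scaled to each other. The log2 ratio of Dbp over Nfil3 was -5.33, -5.30 and -5.28 in control and 0.55, -0.31 and 0.51 with DKK1, a difference of 5.55 between the means of -5.30 ± 0.03 and 0.25 ± 0.49 (SD, n = 3 each). Dbp had only 25, 23 and 28 reads in control, so the SD of 0.03 lies below counting error and does not measure precision. All 3 DKK1 libraries lay far above all 3 controls. The log2 ratio of Per1 over Per2 was 4.85, 4.75 and 4.31 in control and 5.21, 5.17 and 4.40 with DKK1, so the groups overlapped. Bmal1 over Nr1d1 was 2.0, 0 and 1.0 in control and -7.19 and -5.74 in DKK1 libraries 1 and 3. DKK1 library 2 had no Bmal1 read and gives no ratio. The log2 ratio of Bhlhe41 over Bhlhe40 was -6.86 in the 1 control library with a Bhlhe41 read and -0.72, -0.97 and -0.67 with DKK1. These ratios are descriptions and were not tested.

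**Figure D3:**
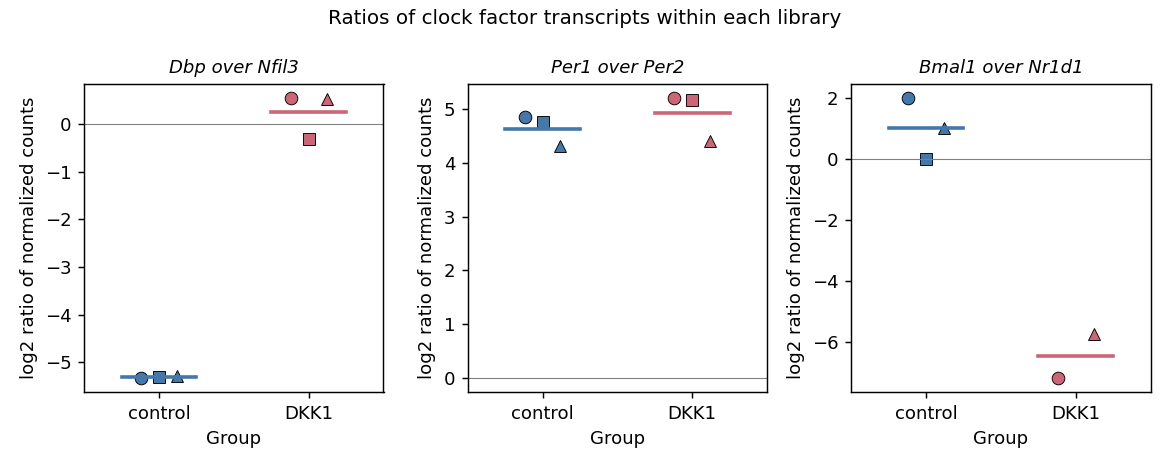
Log2 ratios of normalized counts within each library for Dbp over Nfil3, Per1 over Per2 and Bmal1 over Nr1d1, control in blue and DKK1 in red. Bars are means of 3 libraries, or of 2 for Bmal1 over Nr1d1 with DKK1, where library 2 had no Bmal1 read. Dbp over Nfil3 and Bmal1 over Nr1d1 separate the groups, and Per1 over Per2 overlaps.

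The order of the members by level changed too. Levels were compared per kilobase of exon, since longer transcripts give more reads, and neighbours are called apart where mean ± SD did not overlap. This rule does not compare genes within a library, so neighbours not apart can still keep the same order in every library. In control Per1 led with 775 ± 5.81 normalized counts per kilobase, ahead of Nfil3 with 524 ± 24.0, Cry1 with 80.4 ± 6.28, Bhlhe40 with 58.4 ± 3.15 and Per2 with 30.4 ± 6.39, each apart from the next. Clock (9.36 ± 0.969) and Dbp (8.99 ± 0.353) were not apart, nor were Nr1d1 (1.48 ± 0.426) and Bmal1 (1.31 ± 0.623), and Bhlhe41 was last at 0.111 ± 0.192. With DKK1 the top places went to Cry1 (452 ± 85.5) and Bhlhe40 (398 ± 84.8), which were not apart by this rule. Per kilobase, Cry1 lay above Bhlhe40 in each DKK1 library. Bhlhe41 (159.6 ± 14.7), Per1 (124 ± 28.9), Nr1d1 (107 ± 22.6), Nfil3 (103 ± 39.9) and Dbp (79.4 ± 2.60) formed a middle group, none apart from its neighbour by this rule. Within each DKK1 library, however, Bhlhe41 lay above Per1, Per1 above Nr1d1 and Nfil3 above Dbp. Nr1d1 and Nfil3 changed order between libraries. Clock (15.7 ± 1.20), Per2 (3.97 ± 1.06) and Bmal1 (0.316 ± 0.326) were lowest, each apart from the next.

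Of 22 further clock genes, taken from textbook knowledge of the pathway with earlier results of these data known, 19 were abundant enough to test. With DKK1 12 were higher, 3 were lower and 4 missed the threshold. Over all genes tested, 71.2% were called, 35.1% higher and 36.1% lower. The median log2 change of the 19 was 1.04, against -0.03 over all genes tested. As with the members, these numbers are a description and nothing is read from them. With libraries scaled to equal totals the median was 1.57 against 0.44 over all genes, and 13 were higher and 3 lower. Over all genes that scaling moved the share of higher calls from 49.3% to 59.9%, and the median by 0.47. The 3 genes too low to test were Npas2, Rorb and Fbxl21.

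Among genes whose products modify clock proteins, the casein kinases split. Csnk1e, casein kinase 1 epsilon, which phosphorylates PER, fell 5.65-fold from 1767 ± 70.4 to 313 ± 19.4 (limma adjusted p = 4.76e-09). Csnk1d, casein kinase 1 delta with the same substrate, rose from 829 ± 41.9 to 1290.3 ± 64.9 (limma adjusted p = 3.66e-05). The 2 kinases of PER therefore changed in opposite directions, and for both the groups did not overlap (73.9% of all genes tested). Gsk3b, a further clock kinase, fell from 1374 ± 50.0 to 721 ± 51.9. Among ubiquitin ligase subunits, Fbxw11 (PER) rose from 527 ± 5.92 to 775 ± 19.7, while Btrc (PER) stood at 113 ± 4.58 and 128.6 ± 4.34 and did not pass. With equal totals Btrc passed (log2 change 0.71). Nampt, a clock output that makes the NAD precursor used by SIRT1, rose from 2506 ± 51.2 to 9847 ± 710, and Sirt1 itself from 440 ± 26.7 to 919 ± 225. Usp2, a deubiquitinase under clock control, rose from 47.9 ± 3.75 to 106 ± 18.7. Wee1 (34 reads against 16) and Timeless (17 against 7) did not pass, although Timeless passed without DKK1 library 3 (log2 change -2.18).

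Genes tied to members in leukocytes moved in both directions. Il10 had 1 read in control and 3595 with DKK1 (ratio 3078, 95% exact interval 552 to 121616). Cxcl2 rose 3.0-fold, from 7330.2, 7688 and 7249 in control to 16398, 32657 and 17844 with DKK1, with library 2 the highest. Cxcr2, also 1 of the 8 mature neutrophil markers above, stood at 37246 ± 80.9 in control and 27.8 ± 3.00 with DKK1. Cxcr4, which circulating neutrophils gain as they age, fell 20.5-fold from 7025 ± 145 to 343 ± 70.9. Both receptor genes were thus lower, as were the other mature neutrophil markers. Control of these genes by members was not tested.

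By distance over the 6 libraries between log2 values centred on each gene's mean, the named genes closest to Bhlhe40 were Irak2 (distance 0.129), Plpbp (0.158) and Arid5b (0.159), each higher in all 3 DKK1 libraries. Those closest to Bhlhe41 were Il10 (0.591), Met (0.599) and Tm4sf19 (1.27). With 2 groups of 3, a gene comes near mainly by a like size of the difference between groups. The distances that remain among the nearest genes also hold scatter within groups. The control reads of Bhlhe41 (2) and Il10 (1) both fell in library 2 alone.

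DKK1 library 2 stood apart within its group, and not in the clock genes alone. Its distance from libraries 1 and 3 over genes with 20 or more reads was 13.6 and 12.5 as chi-square per degree of freedom. Between libraries 1 and 3 that value was 2.99, and counting noise alone gives about 1. DKK1 library 2 was the highest for 7 of the 8 members with a DKK1 mean of at least 100, against 46.9% of the 6255 genes at that level. Its excess over the mean of DKK1 libraries 1 and 3 was 1.86 times for Nfil3, 1.42 times for Bhlhe40, 1.47 times for Per1, 1.37 times for Cry1, 1.36 times for Nr1d1, 1.17 times for Bhlhe41 and 1.04 times for Dbp. Without it 6 members were still called higher and 3 lower, Bmal1 having dropped out.

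**Figure D4:**
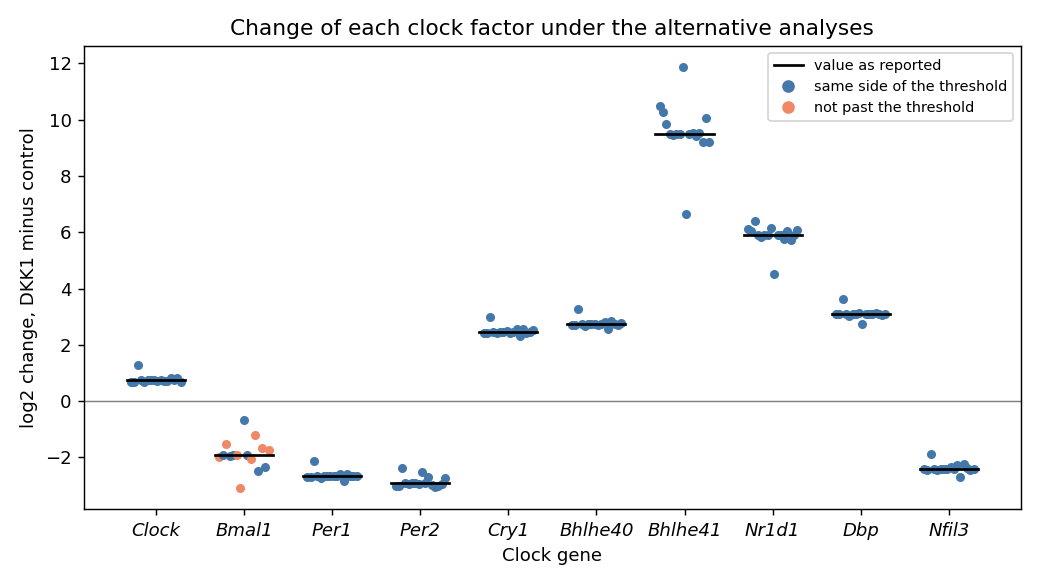
Log2 change (DKK1 minus control) of each clock factor as reported (black bar) and under each alternative analysis (points; 16 per gene, 15 for Bmal1). Orange points did not pass the threshold and belong to Bmal1 alone, and no member changed direction.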

How the data were processed

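The deposited table holds normalized counts per gene and library, a signal that is never negative, per the file headers. The genome build was mm10, per the submitters' processing notes. How reads were aligned, counted and normalized is not given in the sources used here. Another 3 value columns fit none of the samples and stayed unused.

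Every value was a whole multiple of the value of 1 read in its library (100% within 0.001 reads), so reads were recovered (5188116 to 9851961 per library). Pairs of libraries within a group differed beyond counting noise. Counting intervals cover counting error only.

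Groups were compared by limma 3.58.1 (R 4.3.3; trend, robust) on log2(normalized count + 1), two-sided, over genes at 1 or more in at least 3 of 6 libraries; on this scale low genes appear to change less. A fold is the ratio of the group means. With 1 to 3 reads in a group, the ratio of pooled reads is given with its interval. The script was tested on simulated data. edgeR 4.0.16 and DESeq2 1.42.0 on recovered reads were alternatives. The members, lists and rules were chosen with earlier results of these data known. Named genes were the 10 members, the listed clock genes, Cd101, Ly6g, Il10, Cxcl2, Cxcr2, Cxcr4, and for Bhlhe40 and Bhlhe41 the 3 genes of nearest pattern. A few listed genes are not reported here. Positions are from GENCODE M21, matched without ID version.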

Additional observations from a re-analysis of the deposited data

How the results depend on the processing

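Of 159 values of the members under 16 alternatives, 151 kept their direction and side of the threshold and 8 lost the call, all of Bmal1 and listed with it above in part; the others were DESeq2 (adjusted p = 0.0603), equal totals (0.102), limma without trend or robust fitting (0.0691) and a pseudocount of 0.1 (0.111). The median log2 change of the other clock genes was 1.57 with equal totals, 1.67 with a filter of 10 in 3 libraries and 0.64 without a filter. Leaving out 1 library gave Hlf a log2 change between -0.82 and 0.013, the latter without DKK1 library 1. With the replicate block 5630 genes were higher and 5817 lower, against 5709 and 5873, with 6 members higher and 4 lower; same-numbered libraries did not deviate together (correlations -0.0052, 0.0066 and 0.0172), so the numbers were not taken as pairs. Read depth limits Bmal1, Bmal2, Npas2, Rora and the control levels of Bhlhe41, Nr1d1, Nr1d2 and Ciart, for which the size of a change depends on a few reads. With a pseudocount of 10 the log2 change of Nr1d2 went from 5.16 to 3.68 and that of Ciart from 7.05 to 5.75. That of Bhlhe41 went from 9.50 to 6.66 with a pseudocount of 10 and to 11.87 with 0.1, so its rank also depends on this setting.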
